A study of Mus musculus with 130 samples.

Results

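Cholesterol is made from acetyl-CoA through mevalonate, farnesyl pyrophosphate, squalene and lanosterol, and the liver is a main site of this synthesis. Most enzymes of the path are transcribed under SREBP2, a membrane-bound transcription factor that SCAP escorts from the endoplasmic reticulum to the Golgi for cleavage when sterol is low, and that INSIG proteins hold back when sterol is high. The genes described here are 26 members of this system, chosen by symbol from a list: 19 enzymes, 4 regulators and 3 related genes. They were looked up among 35274 genes of a diet study and 35711 genes of a strain panel, and all 26 were found and passed the filter on low counts in both tables.

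By its label, every library came from a piece of liver of 1 male mouse. In the diet study, C57BL/6J mice, 3 per group, ate chow, an iron-sufficient diet (50 ppm iron), a diet elevated to 500 ppm, 2% carbonyl iron (20000 ppm), or 2% carbonyl iron with cellulose as the fibre source. In the panel, 115 libraries of 114 strains were made after 4 weeks on chow and 6 weeks on 2% carbonyl iron, so the panel holds no mouse without iron loading. It had 1 mouse per strain apart from 129X1/SvJ with 2, which were averaged, and held 31 inbred strains beside recombinant inbred sets of 56 (BXD), 20 (AXB/BXA), 4 (BXH) and 3 (CXB) strains. In the panel the difference between strains and the difference between single mice therefore cannot be told apart, and the cellulose group differs from the 2% group in whatever else set those mice apart. The BXD set includes BXD24/TyJ-Cep290<rd16>/J, whose label carries the rd16 allele of Cep290. AXB19, AXB19a and AXB19b, and likewise BXD48 and BXD48a, were counted as separate strains in every test over strains.

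Library totals were 10420708 to 20357169 counts for the 15 diet libraries and 9407880 to 20572879 for the panel, and no library was identical to another. Y-linked genes summed to 3.86 CPM in the library labelled BXD65/RwwJ and to between 124 and 313 CPM in the other panel libraries. A sum this low departs from the male label of that library, and its reason was not tested. CPM are counts scaled to a common library total. Those of single genes also use TMM factors, while the Y-linked and marker sums do not. The 5 hepatocyte markers summed to 66799.6 to 136548 CPM in the panel, as the liver label says. In the diet study they summed to 87021 to 95287 CPM in the 6 mice on 2% iron and 65899 to 84813 CPM in the 9 others, with no overlap. The markers did not move as a set: in 2% iron against 50 ppm, 1 of the 5 was called lower, none higher, and 3 were negative. In the 6 mice on 2% iron the 6 Kupffer cell and macrophage markers summed to 388 to 602 CPM, against 80.0 to 172 CPM in the 9 other mice of the diet study. All 6 of these markers were called higher in 2% iron against 50 ppm, as were the 4 globin genes among 5 erythroid markers tested, while Alas2 was called lower; the erythroid sums were 169 to 486 CPM and 61.7 to 150.2 CPM. These shifts moved with the diet and so with every 2% iron result below, and their part in those results was not tested. In whole liver, fewer cells of a type and less RNA per cell cannot be told apart.

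Compared per transcript length (TPM), the members spanned a wide range of levels. Median TPM over the 115 panel libraries was highest for Ebp (171), Insig2 (164), Fdps (159) and Sc5d (157), and lowest for Ggps1 (4.90), Lbr (5.60) and Mvd (6.78). Reads of Acat2, Idi1, Fdps and Cyp51 can be shared with near-identical relatives or pseudogene copies, so their absolute levels are uncertain.

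Promoter sequence from RefSeq (GRCm38.p6, from 250 bases before to 50 after the annotated start) was found for 22 of the 26 members, with 28 promoters in all. SREBP2 binds sterol regulatory elements, for which the letters TCACNCCAC were searched on both strands, and it is known to act beside the factors that bind CCAAT and GC boxes (CCAAT and GGGCGG). The TCACNCCAC letters stood in 1.242% of all 32851 promoters and in 1 of the 28 member promoters, that of Hmgcs1. CCAAT stood in 37.41% of all promoters and 67.86% of member promoters, in 19 of 22 member genes. GGGCGG stood in 35.66% and 78.57%, also in 19 of 22 genes. These are matches of letters and describe no binding. The 4 upstream stretches printed below were picked after the scan and the expression values were seen: Hmgcs1 as the holder of the sterol element letters, Mvk and Aacs as the 2 of 26 members whose level separated the 6 mice on 2% iron from the 9 others (13.3% of 13560 genes tested separated them), and Hsd17b7 as a later enzyme of the path with 3 CCAAT matches in its window. Each runs 5′ to 3′ on the gene's strand and stops before any exon annotated in GENCODE M21, with TCACNCCAC and CCAAT matches (either strand) in capitals.
Hmgcs1: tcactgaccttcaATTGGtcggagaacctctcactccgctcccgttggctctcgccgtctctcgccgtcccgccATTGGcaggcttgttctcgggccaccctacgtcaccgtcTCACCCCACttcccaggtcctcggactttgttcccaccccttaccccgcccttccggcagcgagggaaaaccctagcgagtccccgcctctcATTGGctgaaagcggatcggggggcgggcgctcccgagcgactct
Mvk: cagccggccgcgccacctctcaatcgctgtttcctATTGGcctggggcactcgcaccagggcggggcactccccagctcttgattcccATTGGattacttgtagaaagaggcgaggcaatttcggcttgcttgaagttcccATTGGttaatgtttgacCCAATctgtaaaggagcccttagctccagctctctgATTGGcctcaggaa
Hsd17b7: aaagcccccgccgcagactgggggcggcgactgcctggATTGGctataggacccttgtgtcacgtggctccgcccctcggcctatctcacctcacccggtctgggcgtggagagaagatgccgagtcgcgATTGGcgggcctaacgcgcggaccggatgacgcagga
Aacs: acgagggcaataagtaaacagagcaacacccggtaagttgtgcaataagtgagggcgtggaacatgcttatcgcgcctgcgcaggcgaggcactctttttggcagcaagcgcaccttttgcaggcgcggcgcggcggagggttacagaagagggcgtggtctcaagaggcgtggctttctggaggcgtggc

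The Hmgcs1 stretch lies at chr13:119690101-119690350 on the plus strand and holds the TCACNCCAC match, which begins 137 bases before the RefSeq start, and 3 CCAAT matches; the 4th of its window follows the start and is not printed. The Mvk stretch at chr5:114444061-114444268 (plus strand) is the whole 208-base gap between Mvk and its neighbour Mmab on the opposite strand, and holds 5 CCAAT matches. The Hsd17b7 stretch at chr1:169969242-169969408 (minus strand) holds 2 of the 3 matches of its window. The Aacs stretch at chr5:125475623-125475813 (plus strand) has no capital: its whole window held none of the 3 motifs, which says nothing of the factors that bind there.

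On 2% carbonyl iron, Aacs rose and a small number of synthesis enzymes fell. Aacs encodes acetoacetyl-CoA synthetase, which lets the cytosol use the ketone body acetoacetate for lipid and sterol synthesis. The 3 mice on 50 ppm had 15.1, 31.4 and 28.3 CPM, and the 3 on 2% iron 119.8, 122 and 155 CPM. Mice on chow had 20.3, 31.2 and 55.8 CPM, those on 500 ppm 19.2, 54.5 and 35.7 CPM, and those on 2% iron with cellulose 107, 195.9 and 132 CPM. All 6 mice on 2% iron (107 to 195.9 CPM) therefore lay above all 9 others (15.1 to 55.8 CPM), with no overlap.

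The log2 change of Aacs was 2.40 ± 0.41 (SE) in 2% iron against 50 ppm (adjusted p 0.00241), 1.88 ± 0.40 against chow (adjusted p 0.00462) and 2.54 ± 0.41 for 2% iron with cellulose against 50 ppm (adjusted p 0.000738). These p-values are from edgeR's quasi-likelihood test with Benjamini-Hochberg adjustment over 13560 genes, as are the others of the diet study, and a gene is said to rise or fall only at an adjusted p under 0.05. The 3 contrasts share mice and are not independent, and their p-values measure the spread between these mice. Aacs passed in all 11 alternative settings of each contrast, and no other member was called higher in the 3 contrasts as reported. With the 2 groups alone, Lbr was also called higher in 2% iron with cellulose against 50 ppm (0.42, adjusted p 0.041).

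In 2% iron against 50 ppm, 3 of the 26 members were called, 1 higher and 2 lower, where 15.7% of all genes tested were called. The median log2 change of the members was -0.38, against 0.01 over all genes, and 20 of 26 were negative. The calls that fell were Mvk and Tm7sf2. Without replicate 1 of the 2% group Aacs alone remained called and the members' median was -0.17 (leaving out mouse 3 on 2% iron gave -0.61, and leaving out mouse 2 on 50 ppm gave -0.23), and 1 member was likewise called without mouse 1, or without mouse 2, on 50 ppm.

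Among the 7 enzymes that lead from acetyl-CoA to farnesyl pyrophosphate, Mvk (mevalonate kinase) was the one called. It stood at 16.96, 17.4 and 14.7 CPM on 50 ppm and at 4.39, 8.27 and 11.7 CPM on 2% iron. Its values were 14.3, 24.3 and 23.05 CPM on chow, 12.4, 13.95 and 17.04 CPM on 500 ppm and 8.45, 10.6 and 8.63 CPM on 2% iron with cellulose. The 6 mice on 2% iron (4.39 to 11.7 CPM) all lay below the 9 others (12.4 to 24.3 CPM), though the nearest pair is close. Mvk fell by 1.01 ± 0.28 on the log2 scale against 50 ppm (adjusted p 0.0249), a call lost in 4 of 11 alternatives, among them without replicate 1 of the 2% group (-0.72, adjusted p 0.0655). Against chow its change was -1.34 ± 0.27 (adjusted p 0.00343), kept in all 11.

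The other 6 enzymes of this stretch were negative without a call in 2% iron against 50 ppm. Hmgcs1, which forms HMG-CoA, had 333, 541 and 356 CPM on 50 ppm and 133, 271 and 385 CPM on 2% iron, a log2 difference of -0.64 ± 0.38 (adjusted p 0.281). Idi1, the isopentenyl diphosphate isomerase, had 182, 287 and 189.8 CPM and 36.4, 160.5 and 194 CPM, a difference of -0.76 ± 0.43. Both pairs of groups overlapped, and in both genes replicate 1 of the 2% group stood far below its group mates. Acat2 (acetoacetyl-CoA formation), Pmvk and Mvd (the steps after mevalonate kinase) and Fdps (farnesyl pyrophosphate synthase) had log2 differences of -0.19 ± 0.40, -0.51 ± 0.39, -0.62 ± 0.55 and -0.20 ± 0.49.

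None of the 3 enzymes that make and close squalene was called in this contrast. The log2 difference was -0.61 ± 0.29 for Fdft1 (squalene synthase) and -0.10 ± 0.37 for Lss (lanosterol synthase). Sqle (squalene epoxidase, a rate-limiting enzyme of the path) had 53.98, 89.1 and 60.8 CPM on 50 ppm, 26.9, 86.9 and 133 CPM on 2% iron and 72.1, 78.6 and 87.2 CPM on 2% iron with cellulose. The 2% group held both the lowest and the highest Sqle value of the 15 mice, so the groups overlapped entirely, and the log2 difference was 0.27 ± 0.42 (adjusted p 0.711).

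Of the 9 enzymes after lanosterol, Tm7sf2 (a sterol C14 reductase) was called. Its values were 88.3, 117 and 106 CPM on 50 ppm, 34.97, 70.0 and 64.5 CPM on 2% iron and 24.8, 25.1 and 44.98 CPM on 2% iron with cellulose. The groups did not overlap with 50 ppm, but the highest of the 6 mice on 2% iron (70.0 CPM) passed the lowest of the 9 others (68.8 CPM). Tm7sf2 fell by 0.87 ± 0.28 (adjusted p 0.0459), a call near the threshold that 6 of 11 alternatives lost. Msmo1 (methylsterol monooxygenase), Cyp51 (lanosterol demethylase) and Nsdhl (a C4 decarboxylating dehydrogenase) had differences of -0.95 ± 0.41, -0.79 ± 0.41 and -0.74 ± 0.40, none called. Lbr, the nuclear envelope protein that shares the C14 reductase activity of Tm7sf2, was at 9.01, 10.8 and 11.3 CPM on 50 ppm and 13.8, 9.87 and 13.5 CPM on 2% iron, a difference of 0.25 ± 0.20 (adjusted p 0.419).

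The remaining late enzymes, Hsd17b7 (a keto-reductase), Ebp (sterol isomerase), Sc5d (C5 desaturase) and Dhcr7 (the C7 reductase), had differences of -0.38 ± 0.21, -0.31 ± 0.16, -0.13 ± 0.29 and -0.40 ± 0.29, none called. Among the regulators, Srebf2, which encodes SREBP2, had 69.5, 86.8 and 70.9 CPM on 50 ppm and 44.7, 69.2 and 66.3 CPM on 2% iron, a difference of -0.33 ± 0.16 (adjusted p 0.17). Scap was at -0.37 ± 0.15, and the SREBP retention genes Insig1 and Insig2 at 0.0019 ± 0.35 and 0.11 ± 0.34. Stard4, a cytosolic sterol carrier, was at -0.40 ± 0.20, and Ggps1, the geranylgeranyl pyrophosphate synthase of the non-sterol branch, at 0.20 ± 0.13. None of these regulators and related genes passed the test.

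**Figure D1:**
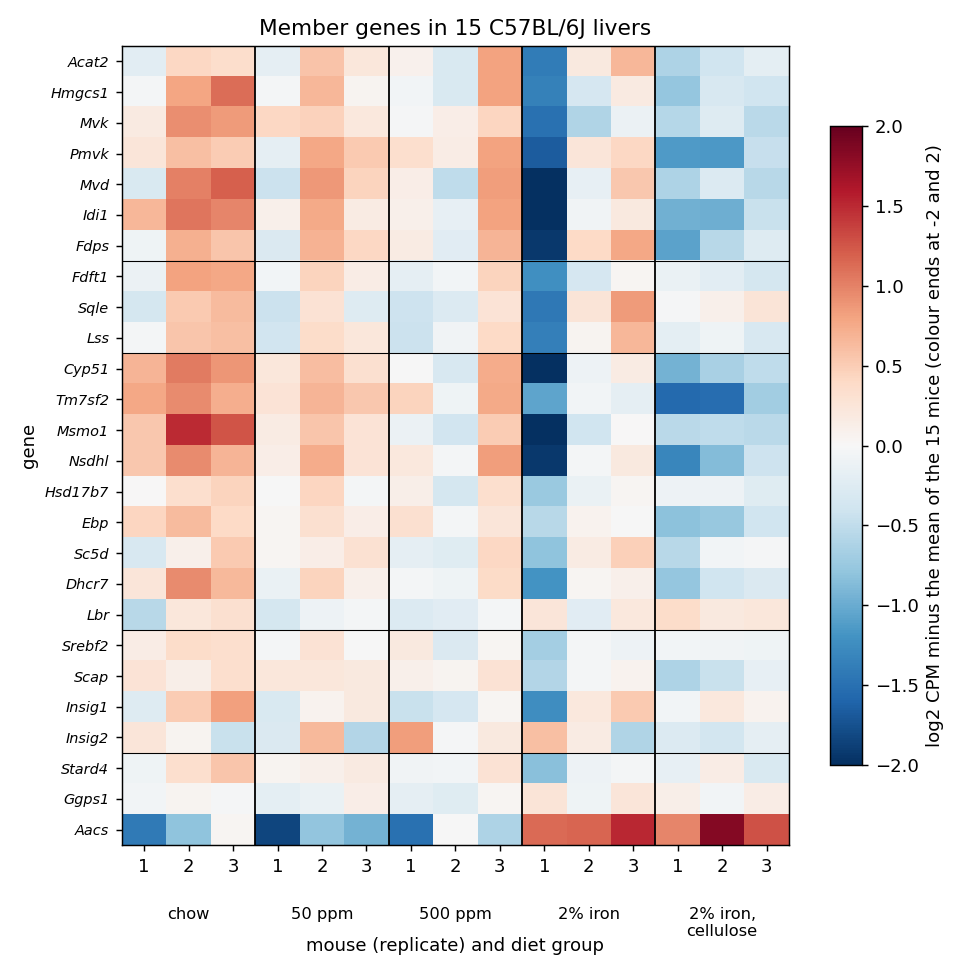
Each row is a member gene, grouped by role (early enzymes, squalene enzymes, later enzymes, regulators, others), and each column 1 of 15 C57BL/6J mice; colour gives log2 CPM minus the gene's mean over the 15 mice. The Aacs row is high in all 6 mice on 2% iron, and replicate 1 of the 2% group is the lowest mouse in 19 of 26 rows.

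Against chow, the feed that the panel mice ate before iron loading, 2% iron gave 10 called members, 1 higher and 9 lower, where 22.8% of all genes were called. The median log2 change of the members was -0.54, and 22 of 26 were negative; without replicate 1 of the 2% group the median was -0.34. Besides Mvk and Tm7sf2 (-1.19 ± 0.28, adjusted p 0.00739), the members that fell were Idi1, Fdft1, Cyp51, Msmo1, Ebp, Dhcr7 and Srebf2. The labels do not give the make-up of the chow, so iron and the rest of the feed cannot be told apart in this contrast. Beside it, all 6 Kupffer cell markers and all 4 stellate cell and fibroblast markers were called higher, while none of the stellate markers was called against 50 ppm; their part in the result was not tested.

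Msmo1 had the largest fall. It was 167, 325 and 276 CPM on chow and 23.1, 87.5 and 115 CPM on 2% iron, so the groups did not overlap, and the change was -1.77 ± 0.42 (adjusted p 0.00852). Without replicate 1 of the 2% group it was -1.34 (adjusted p 0.00744). On 500 ppm Msmo1 was 106, 88.4 and 164 CPM, and on 2% iron with cellulose 79.1, 80.9 and 78.7 CPM.

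Cyp51 was 194, 248.4 and 222 CPM on chow and 27.8, 112.5 and 136 CPM on 2% iron (-1.26 ± 0.41, adjusted p 0.0397). Idi1 was 268, 355 and 332 CPM on chow and changed by -1.29 ± 0.44 (adjusted p 0.0478). In neither gene did the groups overlap. Fdft1 fell by 0.96, Dhcr7 by 0.88, Ebp by 0.62 and Srebf2 by 0.54 on the log2 scale.

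Without replicate 1 of the 2% group, 5 members were called against chow: Aacs, Mvk, Cyp51, Tm7sf2 and Msmo1. Without chow replicate 2 the count was 4 and without chow replicate 3 it was 5, and those 2 mice held the highest value of the 15 in 10 and 7 members. The calls on Aacs, Mvk, Tm7sf2 and Msmo1 held in all 11 alternatives of this contrast; those on Idi1, Fdft1, Cyp51, Dhcr7 and Srebf2 were each lost in 4 to 7 of them, and Ebp in 3.

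The cellulose group gave a second set of 3 mice on 2% iron. Its label also names a fibre source, which the 50 ppm label does not. In its contrast with 50 ppm, iron and whatever else set these mice apart therefore cannot be told apart. Against 50 ppm, 7 members were called, 1 higher and 6 lower, where 29.7% of all genes were called, and the members' median was -0.62. Those that fell were Mvk, Pmvk, Tm7sf2, Nsdhl, Ebp and Scap. Tm7sf2 changed by -1.71 ± 0.28 (adjusted p 0.000816), the largest fall. Ebp was 124, 152 and 133 CPM on 50 ppm and 68.5, 71.2 and 92.2 CPM with cellulose (-0.82 ± 0.16, adjusted p 0.00264), with no overlap. Scap, the SREBP escort, was 172, 172.7 and 169 CPM and 96.6, 108 and 132 CPM (-0.61 ± 0.15, adjusted p 0.00859), also with no overlap.

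Pmvk, the phosphomevalonate kinase, was 26.6, 51.6 and 43.5 CPM on 50 ppm and 13.7, 13.6 and 21.9 CPM with cellulose (-1.30 ± 0.41, adjusted p 0.0275). Nsdhl was 63.8, 97.7 and 70.1 CPM and 23.5, 31.7 and 43.5 CPM (-1.23 ± 0.41, adjusted p 0.0361). Both were below every 50 ppm mouse in all 3 cellulose mice, but in each gene 5 or 6 of 11 alternatives lost the call. Mvk changed by -0.83 ± 0.27 (adjusted p 0.0347), lost in 4 of 11. The calls on Aacs, Tm7sf2 and Ebp held in all 11 and that on Scap in 10. Without cellulose replicate 1, or without replicate 2 of the 50 ppm group, 4 members were called. The members' median was -0.41 by limma on log2(TPM + 1).

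**Figure D2:**
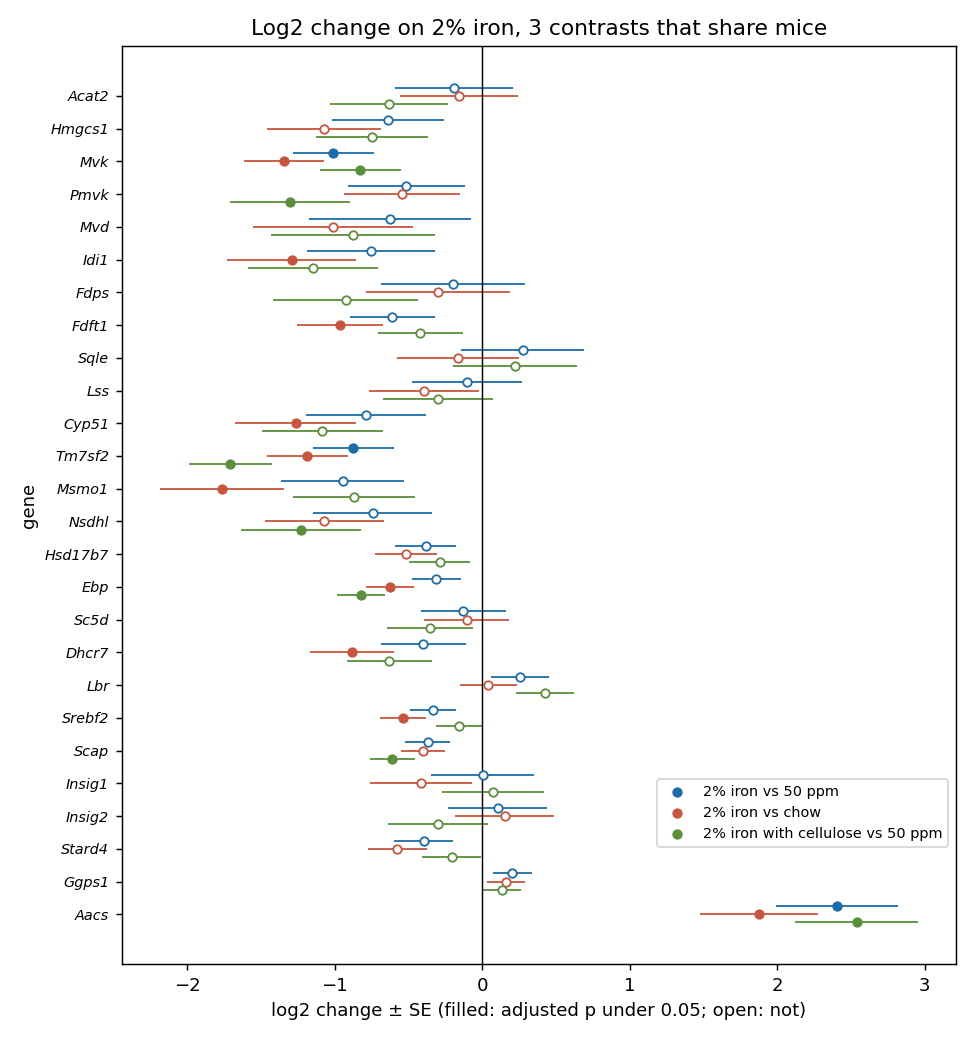
The horizontal axis gives the log2 change ± SE of each member in 3 contrasts that share mice; filled points passed an adjusted p of 0.05 and open points did not. Aacs lies between 1.88 and 2.54 in all 3 contrasts, while most other members lie below 0. Sqle lies between -0.16 and 0.27, and Insig1 lies near 0 against 50 ppm and at -0.41 against chow.

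The direct contrast of the 2 diets with 2% iron called none of the 26 members by edgeR, by DESeq2 or by limma on log2(TPM + 1), where 0.0811% of all genes were called. At an unadjusted p under 0.05, 2 members passed, Ebp (-0.51 ± 0.16, adjusted p 0.216) and Tm7sf2 (-0.83 ± 0.28, adjusted p 0.242). The median of the members was -0.21, but it was 0.083 by limma on log2(TPM + 1), 0.17 without replicate 3 and -0.44 without replicate 1 of the 2% group, so its sign was not steady. Leaving out cellulose replicate 1 gave -0.097. Clock genes differed beside it: 7 of 9 had an unadjusted p under 0.05 between the 2 diets with 2% iron, none called after adjustment by edgeR, with Dbp at 55.8, 81.6 and 15.4 CPM with cellulose and 3.07, 1.60 and 8.45 CPM without. Against 50 ppm, Per1 and Ciart were called higher in the cellulose group. The part of these clock genes in the members' values was not tested. The members called in one 2% group and not in the other were not shown to differ between them.

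At 500 ppm against 50 ppm no member was called by any of the 3 tools, where edgeR called 0% of all genes (428 of 13560 had an unadjusted p under 0.05). No member had an unadjusted p under 0.05. The median difference was -0.07, and its sign rested on single mice: it was 0.058 without replicate 2 of the 500 ppm group and 0.071 without replicate 2 of the 50 ppm group. It was -0.30 without replicate 3 of the 500 ppm group, -0.15 without replicate 1 of the 50 ppm group and -0.011 without replicate 1 of the 500 ppm group. Aacs was the farthest from 0, at 0.56 ± 0.40, with its 500 ppm mice spread from 19.2 to 54.5 CPM. Mvk was at -0.17 ± 0.26 and Msmo1 at -0.28 ± 0.41.

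In chow against 50 ppm again no member was called by any of the 3 tools or passed an unadjusted p under 0.05, where edgeR called 0.391% of all genes. The median log2 difference of the members was 0.31, and 23 of 26 values were positive. The median was 0.17 without chow replicate 3, 0.20 without chow replicate 2, 0.18 without replicate 1 of the 50 ppm group and 0.17 by limma on log2(TPM + 1). Msmo1 had the largest value, 0.82 ± 0.41 (adjusted p 0.528), followed by Idi1 (0.54 ± 0.43), Aacs (0.53 ± 0.40) and Cyp51 (0.48 ± 0.40).

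Replicate 1 of the 2% group stood below its group mates in most members. It was the lowest of the 15 mice in 19 of 26 members, with a median rank of 1, while its group mates had median ranks of 7 and 10. In Mvd (diphosphomevalonate decarboxylase) it had 2.57 CPM against 10.9 and 18.01 in the other 2% mice. In Fdps it had 51.4 CPM against 258 and 336. These ranks were taken over the members alone, and how often this mouse was the lowest over all genes was not tested. Outside the members, it also stood below its group mates in SREBP1 lipogenesis genes. It had 86.3 CPM of Acss2 against 445.7 and 587.9, and 569 CPM of Fasn against 1909 and 3131.5. Its Aacs value of 119.8 CPM was close to the 122 CPM of replicate 2, and its marker sums for Kupffer cells (397 CPM) and hepatocytes (95287 CPM) lay beside those of its group. The 3 mice with cellulose had median ranks of 3, 4.5 and 4.

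Genes around the path were read in 2% iron against 50 ppm from lists of their own. Among ketogenesis genes, Bdh1 at -0.83 ± 0.16 (adjusted p 0.00485) and Acat1 at -0.56 ± 0.16 (adjusted p 0.0296) fell. Of 6 bile acid genes 3 fell: Cyp7b1 at -1.75 ± 0.51 (adjusted p 0.0321), Cyp7a1 (the rate-limiting enzyme of the classic route) at -1.36 ± 0.39 (adjusted p 0.0319) and Cyp8b1 at -0.98 ± 0.20 (adjusted p 0.00556). Cyp7b1 was 184, 44.5 and 38.7 CPM on 50 ppm and 24.5, 30.6 and 24.3 CPM on 2% iron. Its size of change thus leans on 1 mouse on 50 ppm, and no alternative setting was read for the genes of these lists.

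Of 11 genes of LXR response and cholesterol transport, 3 rose and 4 fell. Soat1, which esterifies cholesterol, was at 1.35 ± 0.19 (adjusted p 0.000708), the exporter Abcg1 at 0.96 ± 0.19 (adjusted p 0.00551) and the lysosomal carrier Npc2 at 0.54 ± 0.12 (adjusted p 0.0101). Both Soat1 and Abcg1 are also known from macrophages, whose markers rose in the same contrast; that part was not tested. Mylip, the ligase that marks the LDL receptor for degradation, was at -1.33 ± 0.27 (adjusted p 0.00582) and the HDL receptor Scarb1 at -0.45 ± 0.11 (adjusted p 0.0112). Of 10 SREBP1 lipogenesis genes 1 rose, Acaca at 1.30 ± 0.40 (adjusted p 0.0435). Of 11 processing and sterol-sensing genes 1 rose, Mbtps2 (the site-2 protease) at 0.47 ± 0.10 (adjusted p 0.00714), and of 12 genes of the non-sterol branch none was called, with 3 at an unadjusted p under 0.05. Of 9 clock genes Nr1d1 fell, at -1.24 ± 0.39 (adjusted p 0.0451).

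In the panel every mouse ate 2% iron, and the members differed widely over the 114 strains. Sqle ran from 8.04 CPM in FVB/NJ through a median of 87.8 to 257 CPM in BXD5/TyJ. Fdps ran from 9.85 CPM in NZB/BlNJ through a median of 167 to 562 CPM in BXD5/TyJ, a 57.04-fold range, the widest of the members. Idi1 and Sc5d spanned 52.1-fold and 48.1-fold.

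Hmgcs1 ran from 32.1 CPM in NZB/BlNJ through a median of 208 to 938 CPM in BXD86/RwwJ, and Msmo1 from 12.5 CPM in NOD/ShiLtJ through a median of 104.2 to 396.01 CPM in BXD33/TyJ. Aacs ran from 18.6 CPM in NZB/BlNJ through a median of 125 to 338.3 CPM in CBA/J, and Insig2 from 45.5 CPM in CXB12/HiAJ through a median of 205 to 862 CPM in BXD38/TyJ. These 2 had their highest values in other strains than Sqle, Fdps, Hmgcs1 and Msmo1. The regulators Srebf2 and Scap were narrow, at 3.40-fold and 3.33-fold, as were Ebp (3.69-fold) and Lbr (3.68-fold). Ggps1 was the narrowest, from 5.03 CPM in I/LnJ through a median of 8.70 to 14.6 CPM in BXD38/TyJ, a 2.90-fold range.

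The SD of log2 CPM over strains had a median of 0.706 over the members and 0.346 over 13410 genes in both tables. Set beside the pooled SD within the 2 groups of mice on 2% iron, the strain SD was larger for 21 of 26 members, with a median ratio of 1.27. The same held for 91.0% of all genes, with a median ratio of 1.78. The 2 tables were scaled separately, and the SD between mice includes replicate 1 of the 2% group. The ratio was highest for Aacs (2.44), Sc5d (1.97) and Insig2 (1.95), and below 1 for Acat2, Pmvk, Fdps, Lss and Insig1. The 2 mice of 129X1/SvJ, the only strain of the panel with 2, had 86.1 and 94.1 CPM of Sqle and 397 and 604 CPM of Insig2. No member's strains fell into separate clusters.

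**Figure D3:**
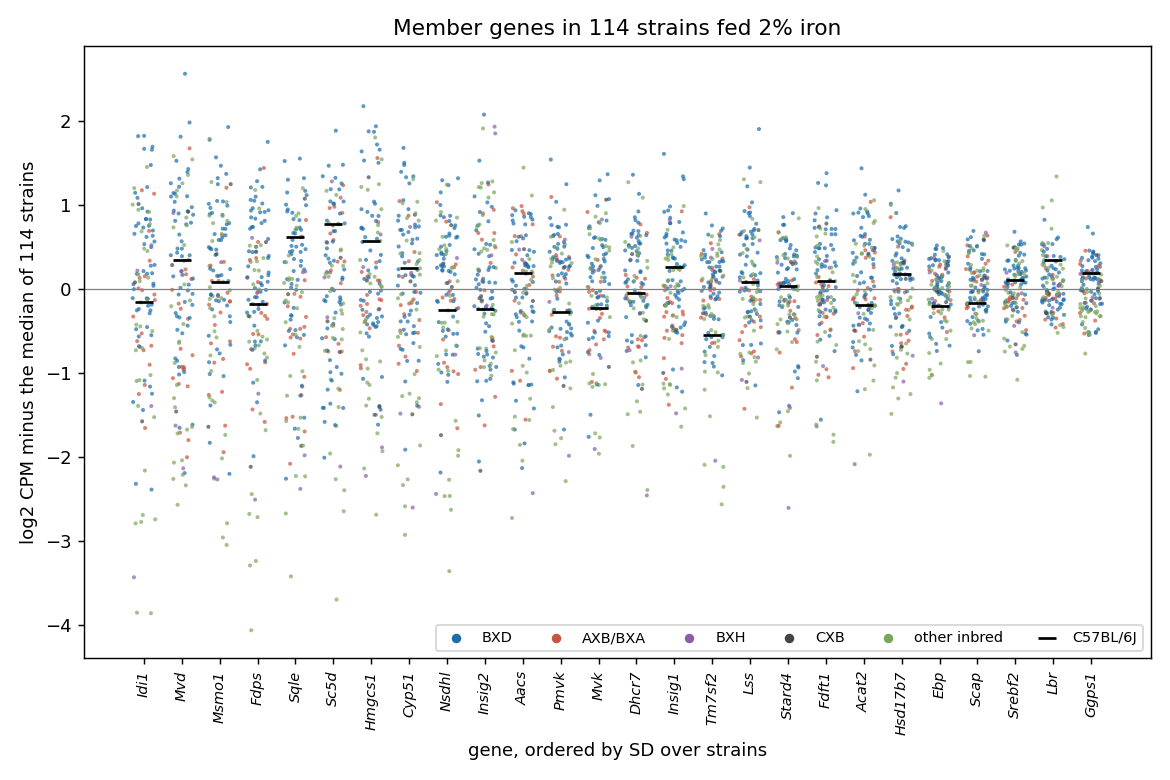
Points are 114 strains on 2% iron, coloured by family, and the vertical axis is log2 CPM minus the gene's median over strains; the black bar is the C57BL/6J panel mouse. Idi1, Mvd and Msmo1 at the left have the widest spread and Ggps1 at the right the narrowest.

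The low end was often held by the same strains. NZB/BlNJ was among the lowest 10 strains for 22 of 26 members, FVB/NJ for 21, BXH2/TyJ for 19, NOD/ShiLtJ for 18 and BTBR T<+> tf/J and NZW/LacJ for 17. At the high end, BXD5/TyJ was among the highest 10 for 22 members and BXD33/TyJ for 21. In FVB/NJ, Sqle was 8.04 CPM, Msmo1 13.3 CPM and Insig2 240.5 CPM. In BXD5/TyJ, Sqle was 257 CPM, Msmo1 269 CPM and Insig2 268 CPM. Lbr went the other way at the low end, with its 2 highest values in BTBR T<+> tf/J (30.03 CPM) and NZB/BlNJ (24.6 CPM). Each of these strains is 1 mouse, so a strain and a mouse cannot be told apart here. The counts of lowest and highest strains were made over the members alone. Whether the same libraries were as often at the ends over all genes was not tested.

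BXD and AXB/BXA strains share the C57BL/6J parent and differ in the other, DBA/2J or A/J. In BXD, 11 of 26 members were higher than in AXB/BXA and none lower, where 11.6% of 13794 genes were called, and the members' median was 0.39 against 0.01 over all genes. The 11 were Mvk, Mvd, Fdps, all 3 squalene enzymes, Msmo1, Hsd17b7, Dhcr7, Srebf2 and Insig1. The families overlapped in every one of them.

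For Sqle the lowest, median and highest BXD strains had 18.2, 118 and 257 CPM, and the AXB/BXA strains 20.6, 59.4 and 155 CPM. The log2 difference was 0.96 ± 0.20 (adjusted p 0.000484). For Mvd they had 2.10, 13.5 and 60.8 CPM in BXD and 2.42, 5.55 and 32.8 CPM in AXB/BXA (0.98 ± 0.25, adjusted p 0.00433). In both genes the medians were apart while the lowest strains of the 2 families lay close together.

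Msmo1 differed by 0.74 ± 0.21 (adjusted p 0.0119) and Insig1, itself a known SREBP2 target, by 0.65 ± 0.15 (adjusted p 0.0009). For Insig1 the lowest, median and highest were 109, 310.5 and 774 CPM in BXD and 97.6, 203 and 482 CPM in AXB/BXA. Fdft1, Lss and Fdps each differed by 0.54, Mvk by 0.43 ± 0.15, Dhcr7 by 0.39 ± 0.13, Hsd17b7 by 0.38 ± 0.12 and Srebf2 by 0.24 ± 0.08. Mvk (adjusted p 0.0487) missed the threshold without the BXD65/RwwJ library (adjusted p 0.0527), which left 10 called. By limma on log2(TPM + 1), 6 were called, and Mvk (adjusted p 0.102), Fdps (adjusted p 0.0783), Lss (adjusted p 0.242), Dhcr7 (adjusted p 0.0997) and Srebf2 (adjusted p 0.12) were lost. Without the filter on low counts Mvk, Fdps and Dhcr7 were lost. The other 6, Mvd, Fdft1, Sqle, Msmo1, Hsd17b7 and Insig1, passed in all 5 alternatives.

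The members without a call included Aacs (-0.18 ± 0.18, adjusted p 0.553), Tm7sf2 (-0.01 ± 0.11), Ebp (-0.01 ± 0.08), Scap (-0.07 ± 0.08), Sc5d (-0.06 ± 0.22) and Insig2 (0.02 ± 0.20). Hmgcs1 and Idi1 both stood at 0.54 without a call (SE 0.23 and 0.23). Beside these, 1 of the 5 erythroid markers tested was higher in BXD, with erythroid sums of 3.56 to 1948 CPM in BXD and 4.36 to 712 CPM in AXB/BXA, 1 of 5 hepatocyte markers was lower, and none of the 6 Kupffer cell markers was called; their part was not tested.

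The parent strains were each in the panel as 1 mouse, outside both families. DBA/2J stood above A/J in all 11 of the called members and in 25 of 26 in all, Insig2 being the exception, and C57BL/6J lay between them in all 11. Sqle was 201.5 CPM in DBA/2J, 135 in C57BL/6J and 18.6 in A/J. Mvd was 29.9, 12.97 and 1.99 CPM in the same order. With 1 mouse each, these differences have no replicate check and carry no test. The order of the parents was counted in the members alone and not over all genes. DBA/2J stood above A/J in members with and without a call, so this does not set the 11 called members apart.

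Sqle was taken as the reference for how members varied together over strains, as a known SREBP2 target with a wide range. Of the 25 other members, 22 had a positive relation with Sqle (adjusted p of r under 0.05, from 100000 permutations with adjustment over 15694 genes), where 11.2% of all genes did so, and 1 was negative. The 22 had r from 0.41 to 0.91, and 19 of the 25 exceeded 0.5, against 0.497% of all genes. The points share the libraries, the TMM scaling and 1 mouse per strain.

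Msmo1 followed Sqle most closely, with r = 0.913 and rho = 0.890 over 114 strains (permutation adjusted p 0.000474 and 0.000773). The unadjusted p of 1e-05 is the smallest that 100000 permutations can give. Without FVB/NJ and NOD/ShiLtJ, the strains farthest from the median of Sqle, it was 0.901. Mvd, Lss, Cyp51 and Idi1 followed at 0.886, 0.868, 0.867 and 0.866. Srebf2, which moved within a 3.40-fold range, had r = 0.842 and rho = 0.890. Nsdhl, Hmgcs1, Fdps, Mvk and Fdft1 lay between 0.822 and 0.845.

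A next group, Stard4, Dhcr7, Hsd17b7, Insig1 and Pmvk, had r from 0.707 to 0.791, followed by Acat2 (0.641), Tm7sf2 (0.593) and Sc5d (0.512). Ebp, Aacs and Scap were the loosest of those called. Aacs, the member that rose on 2% iron in C57BL/6J, had r = 0.442 and rho = 0.388 (permutation adjusted p 0.000474 and 0.00145), and 0.421 without FVB/NJ and NOD/ShiLtJ. Lbr (r = 0.034 and rho = 0.156) and Ggps1 (r = -0.123 and rho = -0.069) were not called.

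Insig2 was the one negative relation, with r = -0.270 and rho = -0.207 over 114 strains (permutation adjusted p 0.0269 and 0.128). Its rho was not called, and neither was its r without FVB/NJ and NOD/ShiLtJ (-0.237, permutation adjusted p 0.0693) or on log2(TPM + 1) (-0.204, permutation adjusted p 0.101). With strains centred within families, Insig2 was not called either (r = -0.241, permutation adjusted p 0.0506). In that setting Ggps1 was the 1 member called negative (r = -0.266, permutation adjusted p 0.0281). Which member was called negative thus depended on the setting. Insig1 had r = 0.752 and rho = 0.698. The retention genes thus had opposite signs, a difference that was not itself tested.

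**Figure D4:**
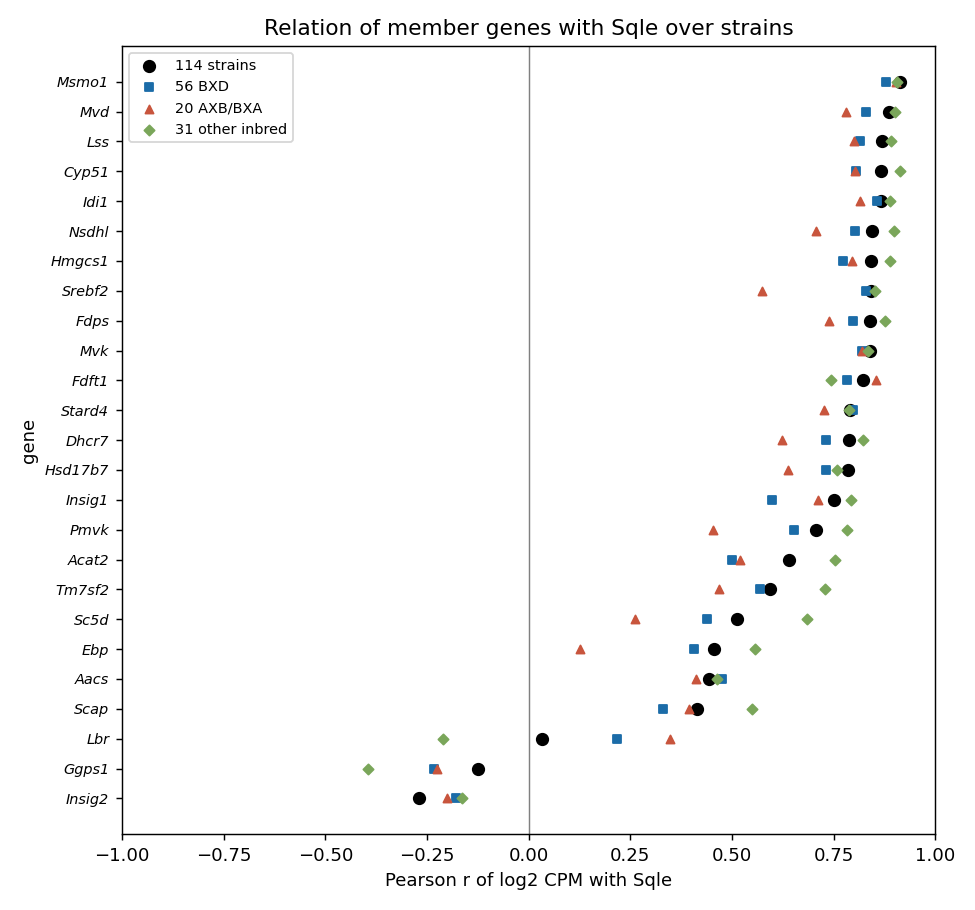
The horizontal axis is Pearson r of each member with Sqle, over 114 strains (black) and within 3 sets of strains (coloured), and rows are ordered by the pooled value. From Msmo1 at 0.913 down to Scap at 0.41 all 4 symbols are positive, while Insig2 and Ggps1 are negative in all 4 and Lbr is mixed.

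Within families, 20 of the 25 members were called in the 56 BXD strains, where 1.24% of all genes were called and positive, and 21 in the 31 other inbred strains, where 2.47% were. All these members were positive. In the 20 AXB/BXA strains none was called by the permutation test after adjustment over all genes, as for 0% of all genes; the smallest adjusted p was 0.0523, and 18 had an unadjusted permutation p under 0.05. Msmo1 had r = 0.879, 0.903 and 0.906 in BXD, AXB/BXA and the other inbred strains. Sc5d had 0.437, 0.261 and 0.685, and Lbr 0.216, 0.349 and -0.209. Differences in r between families were not tested. With strains centred within families the median r of the members was 0.764, against 0.789 pooled.

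**Figure D5:**
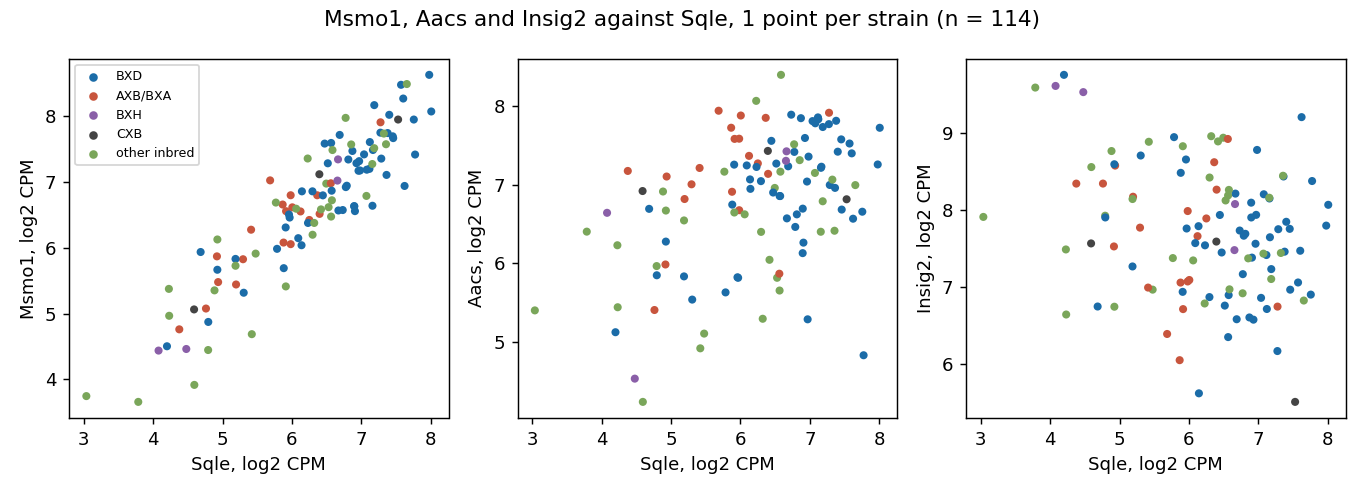
Each point is 1 of 114 strains, with log2 CPM of Sqle on the horizontal axis and of Msmo1, Aacs or Insig2 on the vertical axis, coloured by family. Msmo1 lies along a line (r = 0.913), Aacs is broadly scattered (r = 0.442), and Insig2 slopes weakly downward (r = -0.270).

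Genes outside the members were read beside Sqle in the same way. By the rule for the closest other genes, Rdh11, a retinol dehydrogenase, ranked 2 among them with r = 0.779 and rho = 0.736 over 114 strains, and Mmab, a cobalamin adenosyltransferase and the neighbour of Mvk across the 208-base stretch printed above, ranked 5 with r = 0.726 and rho = 0.701. Of 10 SREBP1 lipogenesis genes 9 were called and positive, with Fasn at 0.61 and Acly at 0.57, below most members. Of 9 clock genes 4 were positive and 1 negative, with Dbp at 0.48, Nr1d1 at 0.45 and Arntl at -0.36. These genes move with the hour of day, which no label gives, and their part in the relations among members was not tested.

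Among processing and sterol-sensing genes, Srebf1 (0.36), Nr1h3 (0.34) and Erlin1 (0.27) were positive and Mbtps1, the site-1 protease, negative (-0.50). Of the bile acid genes Cyp7a1 (0.43) and Hsd3b7 (0.34) were positive, and of the transport genes Soat2 and Npc2 were positive and Mylip and Scarb1 negative. None of the 5 hepatocyte markers, 6 Kupffer cell markers and 6 erythroid markers was called with Sqle, their r lying between -0.12 and 0.24. Of the 4 endothelial markers Kdr was negative (-0.24).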

How the data were processed

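Stranded mRNA libraries of 15 and 115 livers were quantified by the submitters with kallisto 0.46 against mm10, per the submitters' processing notes. The authors deposited 2 tables that hold, for each gene and library, an expected count (an estimate that need not be whole) and a TPM value (abundance scaled for transcript length and library total). Expected counts were rounded, since the test planned for whole counts needs them.

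Counts were filtered with filterByExpr, scaled by TMM and tested with edgeR 4.0.16 (quasi-likelihood, Benjamini-Hochberg over all genes tested); the diet fit used all 5 groups. CPM are counts scaled by library total after TMM, apart from the Y-linked and marker sums, which were scaled by library total alone. A log2 CPM with a prior count of 2 was used over strains, with r and rho by 100000 permutations. Members and lists were chosen with earlier results of these data known. Named were all members, called genes of the lists, and the non-members most related to Sqle, of which some are not reported here. Alternatives were DESeq2 1.42.0, limma 3.58.1 on log2(TPM + 1), RLE scaling, no filter, 2 groups alone and each mouse left out. On simulated data for 2% iron against 50 ppm, 65 of 98 genes changed 2-fold and 27 of 99 changed 1.5-fold were recovered. The changed genes were drawn at random from all genes tested, not from the members, so these shares need not hold for the members.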

Additional observations from a re-analysis of the deposited data

How the results depend on the processing

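All directions of the 31 called gene results were the same in every alternative run, and 14 of these calls also stayed past the threshold in each; 17 were lost in some. The count of called members was least steady in 2% iron against chow (10): it was 5 with the 2 groups alone, 6 by limma on log2(TPM + 1), and 4 to 14 with 1 mouse left out. In 2% iron with cellulose against 50 ppm (7) it was 15 with the 2 groups alone, 4 by limma on log2(TPM + 1), and 4 to 6 with 1 mouse left out. In 2% iron against 50 ppm (3) it was 1 to 2 with 1 mouse left out. In BXD against AXB/BXA (11) it was 6 by limma on log2(TPM + 1). The strain SD exceeded the mouse SD in 13 members with BXD strains only, against 21 with all. The causes were not tested. No paired analysis was possible because the labels give no replicate numbers, so numbers here follow accession order and pair no mice. With 3 mice per diet, changes of 1.5-fold were mostly missed in simulation, and a missing call does not show that a gene did not differ.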
